A study of Capra hircus with 10 samples.

Results

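The lipid droplet and cholesterol ester genes examined here were PLIN1, PLIN2, PLIN3, PLIN4 and PLIN5 (the perilipins), PNPLA2, LIPE and LIPA (lipases) and SOAT1 and SOAT2 (sterol O-acyltransferases). All 10 were found by symbol among the 20587 symbols of the protein-coding transcripts. RNA was taken from whole ovaries of Anhui white goats collected at a slaughterhouse, 5 luteal phase and 5 follicular phase, with 1 ribosomal RNA-depleted, strand-specific library per ovary and no treatment of either group. The labels give neither the age of the animals nor how the phase was judged, and nothing states that each ovary came from a different goat, so the p-values measure the spread between these ovaries. Expression is given as FPKM, that is, fragment numbers corrected for the length of the transcript and for the size of the library, and FPKM of the transcripts of a gene were summed. The values carry no read counts for single ovaries, so the spread between ovaries is the error given for each value, the low ones included.

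Steroid-making cells of the ovary store cholesterol as esters in lipid droplets. SOAT1 and SOAT2 esterify free cholesterol with a fatty acid, perilipins coat the droplet and regulate the access of lipases, LIPE (hormone-sensitive lipase) releases cholesterol from stored esters, and LIPA (lysosomal acid lipase) releases it from lipoproteins taken up into lysosomes. PNPLA2 (adipose triglyceride lipase) opens the breakdown of triglyceride. The corpus luteum of the luteal phase makes progesterone from this cholesterol, while follicles dominate the follicular phase.

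Differences are luteal minus follicular phase on the log2(FPKM + 0.1) scale, which understates the change of low genes. They were tested two-sided with limma over the 15359 genes that reached an FPKM of 0.1 in 5 or more of the 10 ovaries, and p-values were adjusted over all of them by Benjamini-Hochberg. A gene was called at an adjusted p under 0.05. Of the 10 members, 10 were tested and 5 were called, against 43.7% of all genes tested. PLIN2, LIPA and LIPE were higher in the luteal phase (3 of 10, against 15.9% of all genes), and PLIN4 and PNPLA2 were lower (2 of 10, against 27.8%). The shares of all genes depend on the scaling, with 18.9% higher and 19.9% lower when all ovaries were given the same median, and 18.2% and 16.7% on the TPM scale. The median log2 fold change was 0.07 over the members and -0.14 over all genes. The phases did not overlap for PLIN2 and LIPA, both with the luteal phase above (2 of 10, against 11.2% of all genes, and 28.4% in either direction). In bulk tissue, fewer cells of a type and less RNA per cell cannot be told apart.

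**Figure D1:**
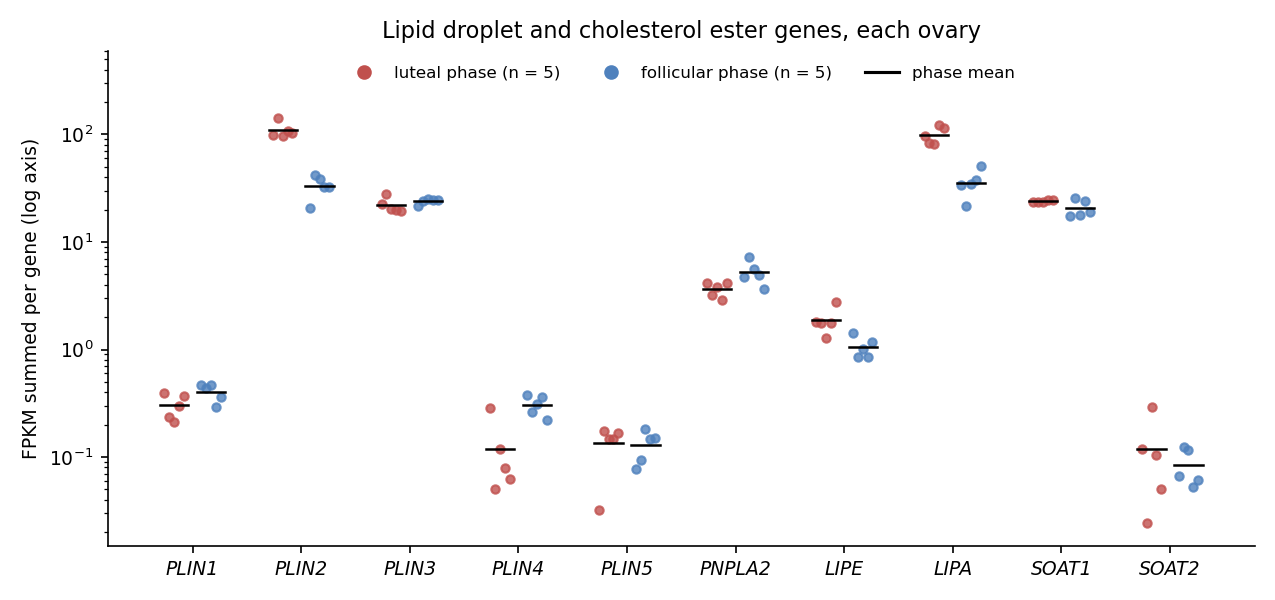
FPKM of the 10 genes in each of the 5 luteal (red) and 5 follicular phase (blue) ovaries, on a log axis, with a black line at each phase mean. PLIN2 and LIPA have all luteal points above all follicular points, the other 8 genes overlap, and PLIN1, PLIN4, PLIN5 and SOAT2 stay below an FPKM of 1 in every ovary.

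Members differed widely in level. Among all genes tested, PLIN2 lay at percentile 96.4 of the luteal and 87.1 of the follicular mean FPKM, and LIPA at percentiles 96.1 and 88.1. In the luteal phase the order by mean FPKM was PLIN2, LIPA, SOAT1, PLIN3, PNPLA2, LIPE, PLIN1, PLIN5, PLIN4 and SOAT2. Within it, the ranges of PLIN2 and LIPA overlapped, as did those of SOAT1 and PLIN3 and those of each neighbouring pair from PLIN5 to SOAT2, and the remaining neighbours were apart. In the follicular phase the order was LIPA, PLIN2, PLIN3, SOAT1, PNPLA2, LIPE, PLIN1, PLIN4, PLIN5 and SOAT2. There the ranges of neighbours overlapped from LIPA to SOAT1, between PLIN1 and PLIN4 and between PLIN5 and SOAT2, and the remaining neighbours were apart.

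PLIN2 (gene ID 100861245), the perilipin that coats droplets in most cells other than fat cells, rose most among the members. Its FPKM was 99.6, 142, 96.8, 107 and 104 in luteal phase ovaries 1 to 5 and 20.6, 41.6, 38.6, 32.1 and 32.8 in follicular phase ovaries 1 to 5. Every luteal phase ovary lay above every follicular phase ovary, luteal phase ovary 2 stood above the other luteal ovaries and follicular phase ovary 1 was the lowest of all. The means were 109.7 ± 18.3 and 33.1 ± 8.04 (SD, n = 5 each), and the log2 fold change was 1.75 (standard error 0.17, limma adjusted p = 2.59e-05). This placed PLIN2 at rank 351 of the 15359 genes, counted from the largest rise. Without luteal phase replicate 2 the log2 fold change was 1.65, and without follicular phase replicate 1 it was 1.59, both called.

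PLIN3 (gene ID 100861244), a perilipin that moves between the cytosol and nascent droplets, had an FPKM of 22.6, 27.7, 20.4, 19.7 and 19.6 in the luteal phase and 21.4, 23.8, 24.9, 24.7 and 24.7 in the follicular phase. The phases overlapped, and luteal phase ovary 2, the highest for PLIN2, was also the highest for PLIN3. The log2 fold change was -0.13 (95% interval -0.34 to 0.09, limma adjusted p = 0.311). Without luteal phase replicate 2 PLIN3 was called lower in the luteal phase, at -0.21 (adjusted p = 0.0443).

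The remaining perilipins were scarce. PLIN4 (gene ID 102171863) had an FPKM of 0.283, 0.0504, 0.120, 0.0786 and 0.0624 in the luteal phase and 0.376, 0.264, 0.313, 0.362 and 0.221 in the follicular phase. Luteal phase ovary 1 lay within the follicular range and the other 4 luteal ovaries lay below it. The log2 fold change was -0.97 (standard error 0.27, limma adjusted p = 0.0130). Only 2 luteal phase ovaries reached an FPKM of 0.1, so PLIN4 passed the minimum through the 5 follicular phase ovaries, and the size of the change depends on the pseudocount, with -0.23 at a pseudocount of 1 and -1.53 at 0.01, both called.

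PLIN1 (gene ID 102190552), the main perilipin of fat cells, was at 0.396, 0.236, 0.212, 0.295 and 0.370 in the luteal phase and at 0.467, 0.435, 0.467, 0.294 and 0.363 in the follicular phase. Its ranges overlapped, and it was not called (log2 fold change -0.34, 95% interval -0.77 to 0.09, limma adjusted p = 0.179). PLIN5 (gene ID 102171595), best known from tissues that burn fatty acids, was at 0.0324, 0.176, 0.148, 0.147 and 0.166 and at 0.0779, 0.0945, 0.184, 0.147 and 0.151. Both phases covered nearly the same range, and luteal phase ovary 1 was the lowest (log2 fold change -0.00, 95% interval -0.55 to 0.54, adjusted p = 0.988). In the goat RefSeq annotation of the assembly ARS1.2, PLIN4 and PLIN5 are direct neighbours among protein-coding genes.

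Because FPKM is scaled by length, the perilipins can be set beside each other. Their summed FPKM ran from 118 to 170 (luteal phase, lowest and highest ovary) and from 43.0 to 66.2 (follicular phase). PLIN2 made up 82.9 ± 1.25% of this sum in luteal and 56.6 ± 5.59% in follicular phase ovaries, and PLIN3 made up 16.7 ± 1.18% and 41.9 ± 5.27% (SD, n = 5 each). PLIN2 exceeded PLIN3 in every luteal phase ovary, by 4.40 to 5.40 times, and in every follicular phase ovary but ovary 1, where the ratio was 0.962. In the other 4 follicular ovaries PLIN2 was higher by at most 1.75 times. These shares are descriptions, given without a test.

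**Figure D2:**
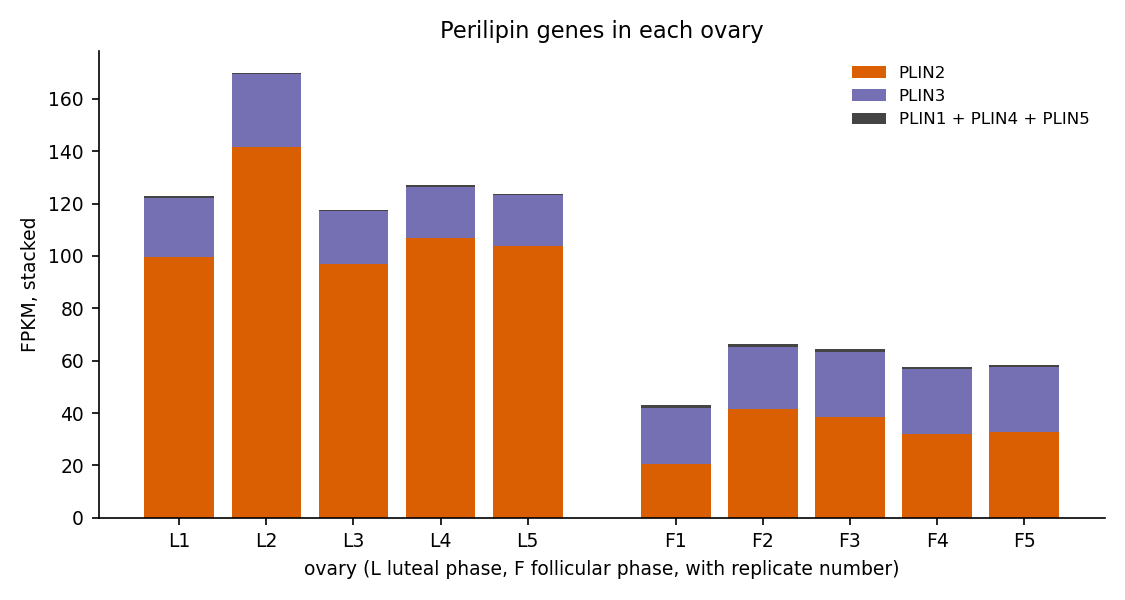
FPKM of the perilipin genes stacked for each ovary (L luteal phase, F follicular phase, with replicate number), from 0. The PLIN2 segment is taller in all luteal phase ovaries, the PLIN3 segment stays between 19.6 and 27.7 in all 10, and PLIN1, PLIN4 and PLIN5 together are a thin strip.

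Among the lipases, LIPA (gene ID 102169934) rose. Its FPKM was 95.9, 82.9, 81.9, 123 and 114 in the luteal phase and 34.0, 21.7, 34.9, 37.3 and 50.4 in the follicular phase. No luteal phase ovary came down to the follicular range, and luteal phase ovaries 4 and 5 were the highest. The means were 99.6 ± 18.5 and 35.7 ± 10.2 (SD, n = 5 each), the log2 fold change 1.51 (standard error 0.20, limma adjusted p = 0.000165). CH25H, which encodes cholesterol 25-hydroxylase and is the next protein-coding gene beside LIPA in the same annotation, had an FPKM of 7.99 ± 1.90 and 8.49 ± 1.14 and was not called (-0.11 on the log2 scale, adjusted p = 0.610).

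LIPE (gene ID 100860801) was less abundant, with 1.80, 1.77, 1.27, 1.78 and 2.76 in the luteal phase and 1.42, 0.861, 1.00, 0.859 and 1.17 in the follicular phase. The ranges overlapped through luteal phase ovary 3 and follicular phase ovary 1, the other luteal ovaries lay above all follicular ones, and luteal phase ovary 5 was the highest. LIPE rose by 0.75 on the log2 scale (standard error 0.21, limma adjusted p = 0.0132).

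PNPLA2 (gene ID 100860889) went the other way. It had an FPKM of 4.20, 3.18, 3.79, 2.87 and 4.18 in the luteal phase and 4.72, 7.32, 5.63, 4.89 and 3.67 in the follicular phase. All but follicular phase ovary 5 of the follicular ovaries lay above the luteal range. The log2 fold change was -0.49 (standard error 0.18, limma adjusted p = 0.0428), a call close to the threshold. The call did not hold without luteal phase replicate 2, 3 or 4 or follicular phase replicate 1, 2, 3 or 4, each left out in turn (-0.52 to -0.37, adjusted p = 0.0585 to 0.103), nor when all ovaries were given the same median (-0.41, adjusted p = 0.103).

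LIPE was below PNPLA2 in all 10 ovaries, with a ratio of 0.334 to 0.660 in luteal and 0.118 to 0.319 in follicular phase ovaries. The phases did not overlap in this ratio, which is given as a description. PLIN2 was 23.8 to 44.6 times as high as PNPLA2 in luteal and 4.37 to 8.94 times in follicular phase ovaries.

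**Figure D3:**
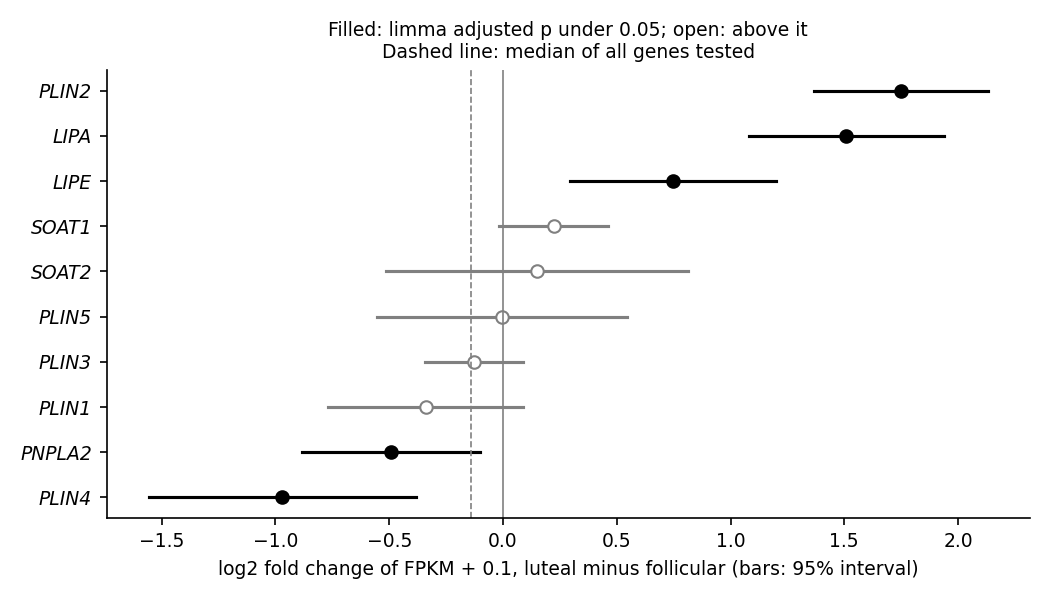
Log2 fold change of FPKM + 0.1 (luteal minus follicular) for each of the 10 genes with its 95% interval; filled points passed a limma adjusted p of 0.05 and the dashed line is the median of all genes, -0.14. PLIN2, LIPA and LIPE lie to the right of 0, PNPLA2 and PLIN4 to the left, and the intervals of the other 5 genes include 0.

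SOAT1 (gene ID 102186791), the acyltransferase found in most tissues, was steady in the luteal phase, at 23.5, 23.3, 23.7, 24.5 and 24.5. In the follicular phase it was at 17.3, 25.6, 17.8, 24.0 and 18.9. Follicular phase ovaries 2 and 4 reached the luteal level or passed it, and the other 3 lay below it. The coefficient of variation was 2.38% in the luteal and 18.4% in the follicular phase. SOAT1 was not called (log2 fold change 0.22, 95% interval -0.02 to 0.46, limma adjusted p = 0.118), although it was called on the TPM scale (0.32, adjusted p = 0.0238) and without follicular phase replicate 2 (0.30, adjusted p = 0.0223).

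SOAT2 (gene ID 102181472), known mainly from liver and intestine, was near the lower end of the table. Its FPKM was 0.119, 0.0244, 0.294, 0.106 and 0.0509 in the luteal phase and 0.0670, 0.123, 0.116, 0.0527 and 0.0608 in the follicular phase. Most of this FPKM came from RefSeq models typed as non-coding by their prefix. XR_001295667.2 carried 77.3% and XR_001295666.2 carried 10.3% on average, so these values are mostly not those of coding SOAT2 transcripts. The luteal range enclosed the follicular one, and exactly 5 ovaries reached the minimum FPKM of 0.1 (log2 fold change 0.15, 95% interval -0.51 to 0.81, limma adjusted p = 0.708). The ratio of LIPA to SOAT1, the abundant hydrolase to the abundant acyltransferase, was 3.46 to 5.01 in luteal and 0.848 to 2.67 in follicular phase ovaries.

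The members are listed with 39 transcripts, of which 18 passed the minimum FPKM and 6 were called in the fit over all 32842 transcripts tested, against 17.3% of all transcripts. Of these, 5 were higher in the luteal phase (7.47% of all transcripts) and 1 was lower (9.82%). Of the 4 PLIN2 transcripts, 3 rose. XM_018051766.1, which carried 48.2% of PLIN2 FPKM on average, was at 61.7, 58.9, 49.5, 46.7 and 47.0 in the luteal phase and 8.76, 21.2, 17.3, 16.2 and 16.2 in the follicular phase (log2 fold change 1.77, limma adjusted p = 0.000388). XR_001918405.1, a RefSeq model typed as non-coding by its prefix, carried 33.7% and had a log2 fold change of 1.84 (adjusted p = 0.000138). Neither transcript overlapped between the phases. XM_018051767.1 was uneven in the luteal phase, from 6.79 to 29.1, and rose by 1.42 on the log2 scale (adjusted p = 0.0284), a call that did not hold without luteal phase replicate 2, 4 or 5 or follicular phase replicate 1 or 4 (adjusted p = 0.0567 to 0.0687). NM_001285596.1 stayed below an FPKM of 1 in every ovary and was not called (adjusted p = 0.586).

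LIPA has 2 transcripts in the table, of which 1 was called. XM_018041264.1 was at 62.9, 59.9, 79.7, 90.6 and 65.6 in the luteal phase and 32.6, 16.7, 28.3, 27.5 and 10.3 in the follicular phase (log2 fold change 1.73, limma adjusted p = 0.00306). XM_018041263.1 was at 33.0, 23.1, 2.15, 32.3 and 48.8 and at 1.45, 5.02, 6.63, 9.83 and 40.1, with no call (adjusted p = 0.358). In follicular phase ovary 5, XM_018041263.1 was at its follicular maximum and XM_018041264.1 at its minimum, and the coefficients of variation of 124% and 40.0% in that phase compare with 28.7% for their sum.

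The LIPE call rested on XM_018062482.1, at 1.00 to 1.91 in luteal and 0.587 to 0.692 in follicular phase ovaries, without overlap (log2 fold change 0.95, limma adjusted p = 0.0148, and 0.0603 with a replicate block). XM_018062484.1 of LIPE was not called (adjusted p = 0.724). For PLIN4, XM_018050876.1 held all of the FPKM and was called with p-values adjusted over the transcripts (adjusted p = 0.0456). This call was lost in 15 of the 18 alternatives that kept the transcript (adjusted p up to 0.101), among them every fit that left out 1 ovary other than luteal phase replicate 1. PNPLA2 was carried by NM_001285739.1 with 91.6% of its FPKM, and this transcript alone was not called (log2 fold change -0.46, adjusted p = 0.120). XM_018042656.1 and XM_018042657.1 of PNPLA2, XM_018066567.1 of PLIN1, NM_001285595.1 and XM_018049969.1 of PLIN3, XM_018050879.1 of PLIN5 and XM_005690926.2 and XM_005690927.3 of SOAT1 were not called either, with adjusted p from 0.101 to 0.965. On the TPM scale XM_005690927.3, with 79.3% of SOAT1 FPKM, was called higher in the luteal phase (0.34, limma adjusted p = 0.0320).

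**Figure D4:**
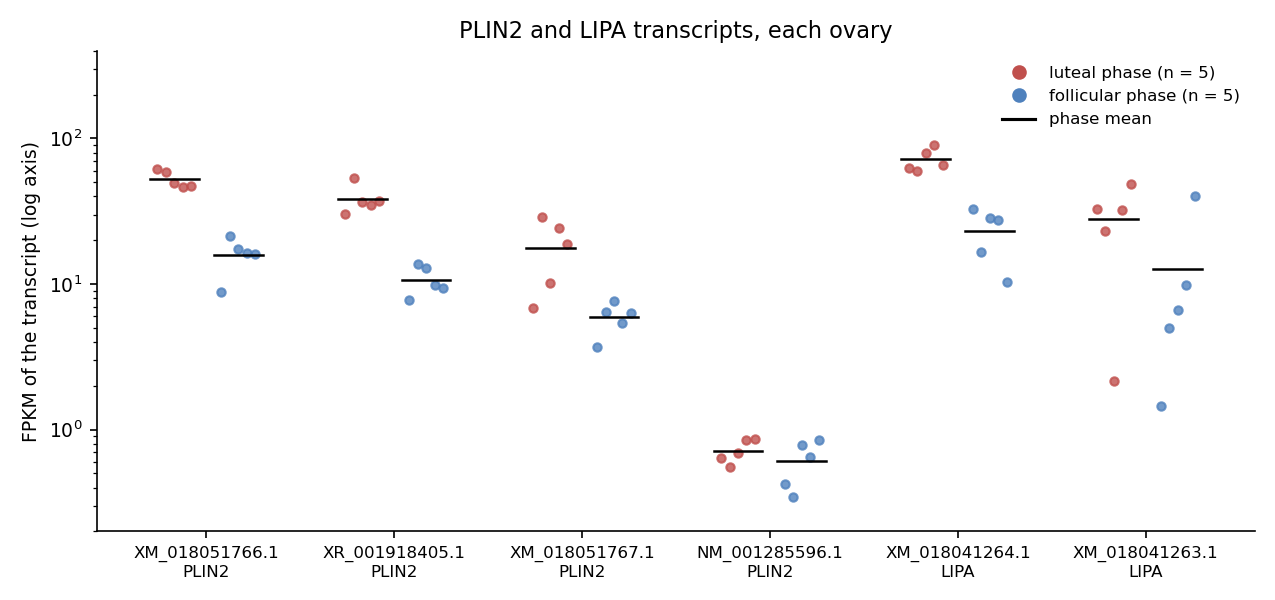
FPKM of the 4 PLIN2 and the 2 LIPA transcripts in each luteal (red) and follicular phase (blue) ovary, on a log axis, with a black line at each phase mean. XM_018051766.1, XR_001918405.1 and XM_018041264.1 separate the phases, whereas XM_018041263.1 ranges from 1.45 to 48.8 across the ovaries and overlaps.

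The share of a transcript in the FPKM of its gene was compared between the phases for 16 transcripts of 7 members by a two-sided exact permutation test, whose smallest possible p is 0.00794. No share reached a p under 0.05, before or after adjustment over the 16. XM_018051766.1 made up 48.8 ± 8.20% of PLIN2 in luteal and 47.7 ± 3.80% in follicular phase ovaries (SD, n = 5 per phase, exact permutation p = 0.810). XM_018041264.1 made up 73.2 ± 15.0% and 69.5 ± 28.7% of LIPA (exact permutation p = 0.865). The lowest p, 0.0556, belonged to XR_001295667.2 of SOAT2.

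Likeness to other genes was measured as the root mean square difference of log2(FPKM + 0.1), centred on the mean of each gene, over the 10 ovaries, among genes with a mean FPKM of at least 1. The profile of PLIN2 was most like those of DUSP4 (0.19), CERS6 (0.21) and SUSD4 (0.25). Nearest to LIPA were C1QC (0.12), SH3YL1 (0.16) and C1QB (0.17). C1QC was at 65.1 ± 7.71 in the luteal and 25.5 ± 7.25 in the follicular phase. For LIPE the nearest were CSPG4, ZDHHC12 and TNFRSF21 (0.17 to 0.18), for PNPLA2 URB1, ZBTB49 and KAT2A (0.11 to 0.14), for PLIN3 ZNF410, ENPP2 and THOC7 (0.08 to 0.09) and for SOAT1 TIMMDC1, COPB1 and MCUR1 (0.09 to 0.10). For the members below an FPKM of 1, whose log values the pseudocount shrinks, the nearest were ZXDC, LOC108635514 and GID4 for PLIN1, TNNI3, MME and ATF1 for PLIN4, C3H1orf50, FAM20A and BHLHB9 for PLIN5, and RELN, CFB and SVEP1 for SOAT2.

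Of 16 other tested genes for droplet coat and biogenesis, 2 were higher in the luteal phase (against 15.9% of all genes tested) and 1 was lower (against 27.8%). Their median log2 fold change was 0.12, against -0.14 over all genes. Over the alternatives 0 to 3 were higher and 1 or 2 were lower. The count lower was 2 with a replicate block and without follicular phase replicate 2. CIDEC, which promotes droplet fusion, was at 0.245 to 0.776 in luteal and 0.0172 to 0.115 in follicular phase ovaries (log2 fold change 1.67, limma adjusted p = 0.00121), and passed the minimum through the luteal phase. Its call held at pseudocounts of 1 and 0.01, but the fold change was then 0.45 and 2.59. DGAT2, which makes triglyceride, was at 4.19 ± 1.28 and 2.48 ± 0.283 (0.68, adjusted p = 0.0244). HILPDA, an inhibitor of PNPLA2, was lower in the luteal phase without overlap, at 3.36 ± 0.567 and 6.17 ± 1.28 (-0.85, adjusted p = 0.00155). The DGAT2 call did not hold without luteal phase replicate 2, 3 or 5 or follicular phase replicate 1 (adjusted p = 0.0536 to 0.0571), nor with the top transcript alone (adjusted p = 0.0613), where 0 of 15 tested genes of the list were higher and CIDEC was not tested.

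In the list of lipolysis regulators, 1 of 10 tested genes was higher in the luteal phase (against 15.9% of all genes) and 3 were lower (against 27.8%), with a median log2 fold change of -0.09. The count lower ran from 1 to 4 over the alternatives. It was 4 with quantile normalization, 2 on the TPM scale and with a common median, and 1 with the top transcript alone. ABHD5, the coactivator of PNPLA2, was at 5.51 ± 0.999 in luteal and 3.39 ± 0.316 in follicular phase ovaries, without overlap (0.67, limma adjusted p = 0.00247). PPARG, a transcription factor of fat storage, was at 11.1 ± 1.60 and 21.8 ± 3.56 (-0.97, adjusted p = 0.000189), and PPARA, its relative in fatty acid oxidation, at 2.51 ± 0.349 and 4.37 ± 0.679 (-0.77, adjusted p = 0.00122, and 0.0505 with the top transcript alone), neither with overlap. PRKAR2B, a regulatory subunit of protein kinase A, was called at -0.34 (adjusted p = 0.0374) but not without luteal phase replicate 1, 2 or 3 or follicular phase replicate 1, 2 or 4 (adjusted p = 0.0566 to 0.0883), nor with a common median (-0.25, adjusted p = 0.141). G0S2, another inhibitor of PNPLA2, was at 49.6, 42.8, 16.4, 19.0 and 16.5 in the luteal phase and between 16.0 and 22.2 in the follicular phase. Luteal phase ovaries 1 and 2 stood apart from the other 8, and G0S2 was not called (0.43, adjusted p = 0.279).

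Of 21 tested sterol ester and cholesterol traffic genes, 12 were higher in the luteal phase (against 15.9% of all genes) and 1 was lower (against 27.8%), with a median log2 fold change of 0.43. The difference between the list and all genes was not tested. NCEH1, a neutral cholesterol ester hydrolase, was at 7.24 ± 1.23 in the luteal and 3.46 ± 0.996 in the follicular phase, without overlap (1.07, limma adjusted p = 0.00106). SCARB1, the receptor for high density lipoprotein, rose by 4.01 on the log2 scale (adjusted p = 2.29e-09). STAR, which carries cholesterol into mitochondria, rose by 7.35 (adjusted p = 1.002e-09), and GRAMD1B, a sterol carrier at membrane contacts, by 4.07 (adjusted p = 2.60e-05). GRAMD1A, of the same family, was called lower (-0.38, adjusted p = 0.0122), but not on the TPM scale (-0.28, adjusted p = 0.0975).

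**Figure D5:**
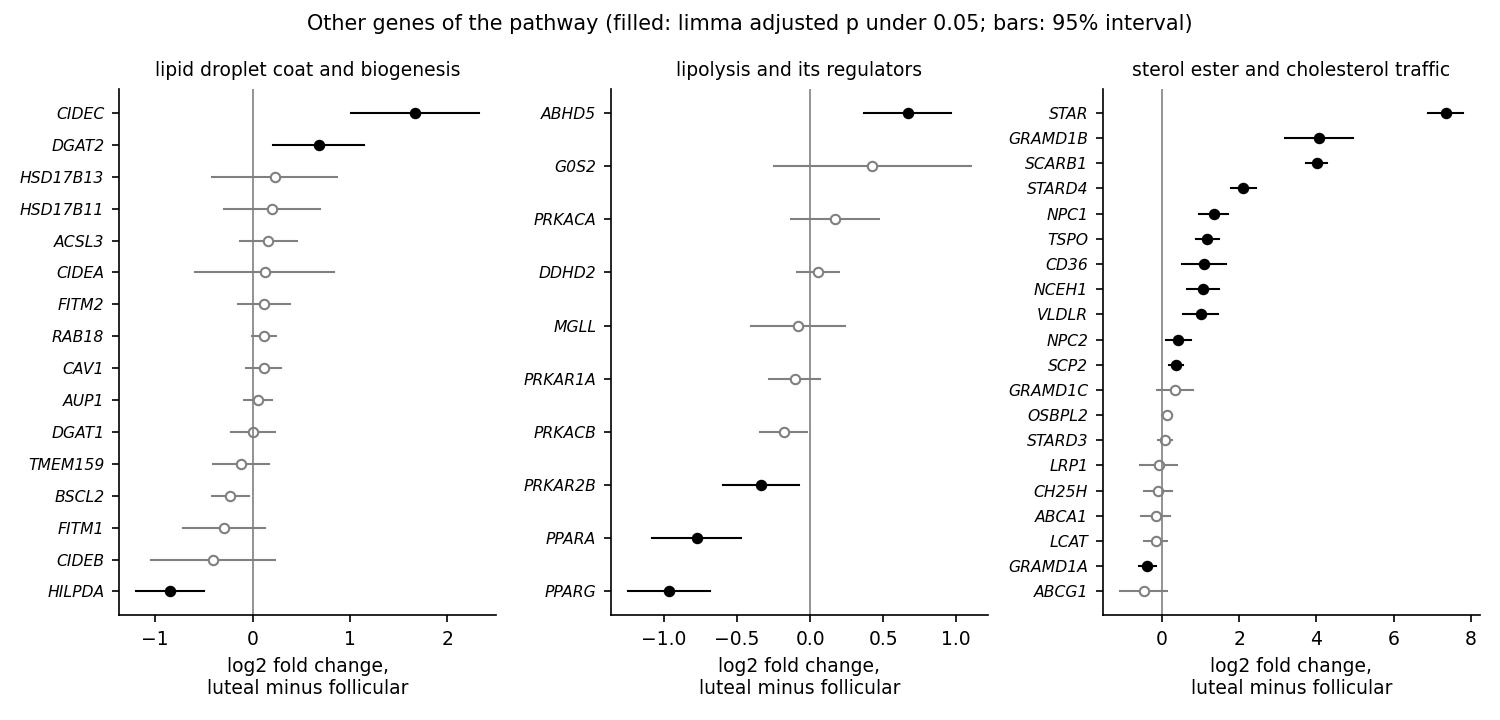
Log2 fold change of FPKM + 0.1 (luteal minus follicular) with its 95% interval for genes of the lists for droplet coat and biogenesis (16 genes plotted), lipolysis (10) and sterol ester and cholesterol traffic (20 of the 21 tested); filled points passed a limma adjusted p of 0.05. Most filled points to the right of 0 belong to the cholesterol traffic list, up to STAR at 7.35, and the horizontal axes differ between the panels.

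Marker genes of several ovarian cell types also differed in FPKM between the phases, and their part in the results above was not tested. The counts that follow stand against 15.9% of all genes called higher and 27.8% called lower in the luteal phase, and several lie near these shares. Luteal steroidogenic markers were higher in the luteal phase for 5 of 5 genes tested (STAR had the highest mean FPKM of them), with a summed FPKM of 5768 to 7930.3 against 123 to 172, and luteal phase ovary 3 was the lowest luteal ovary. Endothelial markers were higher for 7 of 7 (KDR 79.1 ± 19.6 and 25.7 ± 3.20), with sums of 239.7 to 313 and 119.6 to 148. Macrophage markers were higher for 2 of 7, with sums of 105 to 166 and 56.6 to 94.4 that did not overlap (MRC1 53.1 ± 17.2 and 20.8 ± 2.13), while CD68 and CD14, named after their values were seen, were not called. The macrophage count was 4 of 7 without luteal phase replicate 5, and 3 higher and 1 lower without follicular phase replicate 5. Granulosa markers were lower for 5 of 8 (INHA 149.95 ± 126 and 279 ± 157 was not called, but was called lower without luteal phase replicate 1 or follicular phase replicate 3), theca markers lower for 2 and higher for 1 of 3 (INSL3 30.4 ± 15.9 and 148.6 ± 24.3), muscle markers lower for 5 of 7 (TAGLN 405 ± 87.5 and 627 ± 65.5) and oocyte markers lower for 3 of 7 (ZP3 3.71 ± 1.63 and 9.20 ± 4.74). The theca marker called higher is also counted among the luteal steroidogenic markers. The oocyte count was 5 without luteal phase replicate 3, 6 without follicular phase replicate 4 and 2 without luteal phase replicate 4. Of the 7 stroma markers, 2 were higher and 2 lower (COL3A1 1875 ± 326 and 1117 ± 231), and the blood marker SLC4A1 stayed below the minimum FPKM.

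Fat cells bear on PLIN1, PLIN4 and LIPE, which they express strongly. Adipocyte markers had a summed FPKM of 39.5 to 151 in luteal and 41.9 to 85.7 in follicular phase ovaries, and of 6 tested 2 were higher (against 15.9% of all genes) and 1 was lower (against 27.8%). Among these markers, ADIPOQ was at 0.0269 to 0.361 and 0.128 to 0.297, LEP at 0.0373 to 0.141 and 0.0165 to 0.0568, THRSP at most at 0.158, and PCK1 was listed at 0 in 9 of 10 ovaries. Without the minimum FPKM, 9 were tested, of which 3 were higher and 1 was lower. LEP was then called higher in the luteal phase (log2 fold change 0.54, limma adjusted p = 0.0338). LPL was at 69.3 ± 34.4 and 30.0 ± 8.39 (log2 fold change 1.08, limma adjusted p = 0.0266), a call that did not hold without luteal phase replicate 4 or 5 or follicular phase replicate 1 or 4 (adjusted p = 0.0578 to 0.0666). CFD and CIDEA were not called (adjusted p = 0.734 and 0.777), CIDEC was higher as given above, and GPD1 was lower, at 1.49 ± 0.211 and 2.43 ± 0.612 (-0.65, adjusted p = 0.0135, and 0.0517 on the TPM scale).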

How the data were processed

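The authors aligned the reads of each ovary with HISAT2, assembled transcripts with StringTie and deposited FPKM from Cuffdiff, 1 column per ovary and without pooling; the genome build is not given in the sources used here. Each column was assigned to its ovary by phase and replicate number. FPKM of protein-coding transcripts were summed by symbol. The per-ovary totals over all transcripts, those not typed as protein-coding included, were 452508 to 503276 (luteal phase) and 492324 to 540124 (follicular phase). limma 3.58.1 (lmFit, eBayes with trend) in R 4.3.3 compared the phases, with no further scaling. On simulated data with 200 changed features, the gene fit called 70% of 2-fold and 94% of 4-fold changes. The transcript fit called 31% and 66%, so a transcript that was not called may still differ. False calls were 6.29% of gene calls and 3% of transcript calls. Transcript shares were tested by exact permutation in Python 3.11.15. The members and all lists were chosen with earlier results of these data known. Of 123 listed symbols, 107 matched directly, 2 through RefSeq synonyms, and 14 were not analysed here. Named genes were the members, their tested transcripts, up to 4 called genes per list and direction by size with a fixed set of regulators, adipocyte markers, the most abundant marker per cell type, and the 3 genes nearest each member. Alternatives were other pseudocounts, filters, scalings, eBayes without trend, a replicate block, the mRNA table, the top transcript and leaving out each ovary. The highest r between ovaries was 0.997 with 0 identical gene values above an FPKM of 1, so none was counted as a duplicate. Some genes are counted in the lists but are not reported here.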

Additional observations from a re-analysis of the deposited data

Results flagged for a closer look

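In 110 groups of 5 ovaries, Dixon's test at the 95% level set 4 ovaries apart from the rest of their phase, where chance alone flags about 1 in 20. PLIN2 was at 142 in luteal phase replicate 2, against 96.8 to 107 in the other luteal ovaries. PLIN5 was at 0.0324 in luteal phase replicate 1, against 0.147 to 0.176. The LIPA transcript XM_018041263.1 was at 40.1 in follicular phase replicate 5, against 1.45 to 9.83. The summed luteal steroidogenic markers were at 5768 in luteal phase replicate 3, against 7478 to 7930.3.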

How the results depend on the processing

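PLIN2, LIPA and LIPE were called in the same direction in all 21 alternatives, and PLIN4 in the 20 that kept it (a minimum FPKM of 0.5 removed it). The mRNA table, counted among the 21, holds the same values as the main input, so its result could not differ. The count of members called was 4 or 5 in every alternative, that of member transcripts 4 to 6 (4 to 6 higher and 0 or 1 lower in the luteal phase) and that of all genes 4926 (top transcript) to 7020 (replicate block), and 0 shares were called throughout. Of the calls over all genes, 36.3% were higher in the luteal phase, against 48.8% with a common median, 41.8% with quantile normalization and 52.1% on the TPM scale. The PNPLA2 call was lost in 13 of 21 alternatives. Genes that were never called changed sign. PLIN1 was at 0.36 with the top transcript. PLIN5 was at 0.0035 with a pseudocount of 1, 0.0804 with a common median, 0.21 with quantile normalization and 0.0450 on the TPM scale, and it ran from -0.0934 to 0.19 when 1 ovary was left out. SOAT2 ran from -0.0915 to 0.32 in such fits. The cause was not tested. The labels do not state that the replicate numbers pair the ovaries, and the main fit did not pair them. Same-numbered ovaries deviated together with r of 0.03 to 0.20, and 2 of 5 luteal ovaries matched their own number best. These values do not settle whether the ovaries are paired. With a replicate block 7020 genes, 4 members and 4 member transcripts were called, PNPLA2 with an adjusted p of 0.0728, and granulosa markers were lower for 8 of 8 (INHA adjusted p = 0.00794) and oocyte markers for 5 of 7. The values carry no read counts for single ovaries, which limits what the members below an FPKM of 1 can show.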
